A study of Homo sapiens with 9 samples.

Results

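The nuclear-encoded subunits of the respiratory chain were compared, complex by complex, in MDA-MB-468 cells that carried a short hairpin RNA against BBOX1 or a scrambled hairpin. MDA-MB-468 is a long-established human breast cancer line of the triple-negative type, and BBOX1 encodes gamma-butyrobetaine hydroxylase, which catalyses the last step of carnitine synthesis. Members were all rows of the deposited gene table whose symbol matched the naming patterns of complex I (NDUFA, NDUFB, NDUFC, NDUFS and NDUFV followed by a number, and NDUFAB1), complex II (SDHA to SDHD), complex III (UQCR and CYC1), complex IV (COX4 to COX8) or complex V (ATP5). This gave 95 of 27315 rows, with 41 for complex I, 4 for complex II, 11 for complex III, 19 for complex IV and 20 for complex V. Of the 95 rows, 84 stand for annotated subunits or their isoforms, and 11 are pseudogenes, gene copies, readthroughs, antisense RNAs or factors that share the name. The symbols are those of the table, and NDUFA4, now known as a subunit of complex IV, is counted there with its relative NDUFA4L2.

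The 9 libraries of polyadenylated RNA were 3 with the BBOX1 hairpin sh1, 3 with the BBOX1 hairpin sh6 and 3 with the scrambled control. All 3 groups were infected with lentivirus made in 293T cells, kept under drug selection and grown in the same medium, and no cloning step is named, so each library is read as a pool of infected cells. The protocol in the labels gives target sequences for hairpins named sh1 and sh2, and no label says which sequence sh6 carries. The labels do not say that the replicates were separate infections or cultures, so p-values reflect only how far these libraries spread, and that spread may be technical.

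The respiratory chain passes electrons from NADH through complex I, and from succinate through complex II, to coenzyme Q, then through complex III and cytochrome c to oxygen at complex IV. Complexes I, III and IV pump protons across the inner mitochondrial membrane, and complex V, the ATP synthase, uses the return flow to make ATP. A few hydrophobic subunits of complexes I, III, IV and V are encoded by mitochondrial DNA, and those transcripts are not analysed here. The nuclear-encoded subunits fall into core subunits, most of which carry flavin, iron-sulfur clusters, haem or the catalytic sites, and accessory subunits, mostly smaller, that surround and stabilise them.

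Promoter windows are shown for the subunits that changed most with both hairpins, 1 lower and 1 higher in each complex where such a subunit has a RefSeq window that can be shown. Each is the 250 bases before the most upstream listed start, 5′ to 3′ on the strand of the gene, from RefSeq on GRCh38.p14, while the expression table was made on hg19. The windows are chr14:92121707-92121956 on the minus strand for NDUFB1, chr19:1383657-1383906 on the plus strand for NDUFS7, chr11:112086623-112086872 on the plus strand for SDHD, chr5:218070-218319 on the plus strand for SDHA, chr1:46303448-46303697 on the plus strand for UQCRH, chr2:42368958-42369207 on the minus strand for COX7A2L and chr12:53676331-53676580 on the minus strand for ATP5G2, now called ATP5MC2. NDUFB1, SDHD, UQCRH, COX7A2L and ATP5G2 were lower with both hairpins, and NDUFS7 and SDHA were higher. Capitals mark matches, on either strand, to CCGGAAG (the core of ETS-family sites, to which GABPA belongs), GCATGCGC (part of the NRF1 palindrome), AAGATGGC (YY1) or CACGTG (the E-box).
NDUFB1: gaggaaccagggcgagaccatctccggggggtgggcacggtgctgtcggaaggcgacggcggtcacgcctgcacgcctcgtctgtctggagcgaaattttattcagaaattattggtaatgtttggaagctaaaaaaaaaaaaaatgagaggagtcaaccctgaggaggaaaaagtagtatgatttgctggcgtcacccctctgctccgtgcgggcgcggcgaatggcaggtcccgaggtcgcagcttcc
NDUFS7: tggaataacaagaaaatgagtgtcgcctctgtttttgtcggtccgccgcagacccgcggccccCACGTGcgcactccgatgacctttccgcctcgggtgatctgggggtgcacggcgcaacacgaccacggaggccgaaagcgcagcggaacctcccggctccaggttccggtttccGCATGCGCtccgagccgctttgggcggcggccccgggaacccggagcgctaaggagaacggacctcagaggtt
SDHD: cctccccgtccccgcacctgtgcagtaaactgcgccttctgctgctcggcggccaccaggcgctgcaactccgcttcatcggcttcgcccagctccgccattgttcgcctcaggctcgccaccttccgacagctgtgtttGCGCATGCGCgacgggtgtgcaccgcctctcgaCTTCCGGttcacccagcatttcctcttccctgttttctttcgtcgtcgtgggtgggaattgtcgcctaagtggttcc
SDHA: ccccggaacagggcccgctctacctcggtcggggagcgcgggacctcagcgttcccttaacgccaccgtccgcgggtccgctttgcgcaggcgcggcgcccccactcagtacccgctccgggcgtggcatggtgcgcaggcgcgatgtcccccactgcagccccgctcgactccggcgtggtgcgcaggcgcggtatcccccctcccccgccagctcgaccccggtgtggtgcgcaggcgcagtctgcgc
UQCRH: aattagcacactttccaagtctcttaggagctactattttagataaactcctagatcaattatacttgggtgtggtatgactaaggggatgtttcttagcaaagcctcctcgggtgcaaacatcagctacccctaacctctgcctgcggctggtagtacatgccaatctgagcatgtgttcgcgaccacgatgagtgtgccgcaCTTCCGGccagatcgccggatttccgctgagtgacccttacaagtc
COX7A2L: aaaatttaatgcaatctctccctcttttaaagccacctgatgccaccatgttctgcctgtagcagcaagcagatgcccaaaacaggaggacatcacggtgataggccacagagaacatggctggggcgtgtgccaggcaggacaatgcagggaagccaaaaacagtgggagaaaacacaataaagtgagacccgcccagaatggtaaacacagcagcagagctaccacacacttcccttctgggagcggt
ATP5G2: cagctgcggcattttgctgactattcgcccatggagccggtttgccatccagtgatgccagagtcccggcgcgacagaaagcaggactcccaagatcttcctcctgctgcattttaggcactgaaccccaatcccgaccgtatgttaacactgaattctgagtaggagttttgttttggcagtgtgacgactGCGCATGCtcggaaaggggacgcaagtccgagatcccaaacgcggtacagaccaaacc
The SDHD window holds the ETS letters and, on both strands of an overlapping palindrome, the NRF1 letters, the UQCRH window the ETS letters, the ATP5G2 window the NRF1 letters, and the NDUFS7 window the NRF1 letters and the E-box. Of the 77 subunits tested, 63 had at least 1 RefSeq window, 9 of them more than 1, and windows were found for 79.4% of all genes tested. GCATGCGC or its reverse complement GCGCATGC was in a window of 13 of these 63 (20.6%), of 5.73% of the 10447 tested genes with a window, and in 2.63% of all 35116 windows. CCGGAAG or CTTCCGG was in a window of 17 of the 63 subunits (27.0%), of 19.0% of the tested genes, and in 8.52% of all windows. CACGTG, which reads the same on both strands, was in 6 (9.52%, against 11% and 6.34%), and AAGATGGC or GCCATCTT in 1 (1.59%, against 2.41% and 1.36%). With sh1, the median log2 change of subunits was -0.21 with the ETS letters and -0.20 without, and with sh6 it was -0.07 with them and -0.08 without. For the NRF1 letters the medians were -0.21 with and -0.19 without in the sh1 comparison, and -0.23 with and -0.06 without in the sh6 comparison. The medians with these letters rest on 13 subunits. Over the 10447 tested genes with a window, the medians with and without the NRF1 letters were 0.01 and 0.00 for sh1. For sh6 they were 0.02 and 0.01. These differences were not tested. A match describes the letters in these windows and is not a measured binding site.

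BBOX1 itself had a normalised count of 324, 346 and 328 in the sh1 libraries, 606, 618 and 581 in the sh6 libraries and 2703, 2785 and 2359.8 in the controls. It was lower in every hairpin library, by a log2 change of -2.76 (SE 0.0654, adjusted p = 3.7e-25) with sh1 and -2.01 (SE 0.0654, adjusted p = 6.2e-22) with sh6 in limma. With 3 libraries on each side, the exact permutation test (two-sided) cannot go below p = 0.1, and it gave 0.1 for each hairpin. Recovered depths were 15727254 to 16212537 reads with sh1, 16040806 to 18855802 with sh6 and 16719536 to 19731729 in the controls. Control replicates 2 and 3 differed more than any other pair within a group, with a chi-square per gene of 8.88 against 2.01 to 5.77 for the other pairs. All 10 markers of the line that were looked up (EGFR, keratins, EPCAM and CDH1) were detected in every library, with summed counts of 146851 to 152280 with sh1, 145067 to 149429 with sh6 and 138804 to 149346 in the controls. Of the receptors whose lack defines the triple-negative type, PGR was at 0 in all libraries, while ESR1 had normalised counts of 96.9 to 255 and ERBB2 of 579 to 1116. Of the fibroblast markers COL1A1, COL1A2, COL3A1, DCN, LUM and PDGFRB, 1 passed the filter on low values, COL1A1, and the summed counts were 286 to 352 with sh1, 313 to 395 with sh6 and 324 to 444 in the controls. Of the leucocyte markers PTPRC, CD3E, CD79A, CD68 and LYZ, 1 passed, CD68, with sums of 74.5 to 92.6 with sh1, 135 to 139 with sh6 and 199 to 229 in the controls, and their part in the results was not tested. The 293T-related markers NEFM and NEFL summed to at most 0.914.

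More respiratory chain transcripts were lower than higher with sh1, and fewer moved with sh6. Of the 95 members, 82 passed the filter on low values, at a mean normalised count of about 16.2, and these 82 are meant wherever tested members are counted. With sh1, 47 of 82 were lower and 10 higher at an adjusted p under 0.05, while 30% of all 13165 genes tested were lower and 29% higher. With sh6, 28 were lower and 19 higher, beside 33.6% and 34.2% of all genes. The median log2 change of the members was -0.18 with sh1 and -0.06 with sh6, against 0.00 and 0.01 over all genes tested. In bulk RNA, fewer cells of a type and less RNA per cell cannot be told apart. With both hairpins called and moving the same way, 23 members were lower and 7 higher, beside 19.4% and 18.9% of all genes, and both comparisons share the same 3 control libraries. Only NDUFA8 was called in opposite directions. All 3 sh1 libraries lay below all 3 controls for 44 members and above them for 10, beside 32.4% and 31.7% of all genes. For sh6 these counts were 27 and 17, beside 33.9% and 34.6%.

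The counts moved with scaling and with transcript length. Members have short transcripts, with a median of 945 bases against 2994.5 for all genes tested (GENCODE 29 principal transcripts), and 718 short genes outside the chain, of at most 1000 bases, also had a median log2 change of -0.11 with sh1, with 41.9% lower and 14.8% higher. After removal of the trend on transcript length in each library, 31 members were lower and 16 higher with sh1 (median -0.04), and 19 lower and 28 higher with sh6 (median 0.04). Of the 12898 genes with a length, 3732 were then lower and 4042 higher with sh1, and 4097 lower and 4743 higher with sh6. The normalised totals of the sh1 libraries were lower than those of the other groups, and with the libraries rescaled to equal totals, which moved the median of all genes with sh1 to 0.09, 30 members were lower and 17 higher with sh1. On that scale 2862 of all 13165 genes were lower with sh1 and 5321 higher. Without control replicate 2, the members higher with sh1 were 4, those lower with both hairpins 15 and those higher with both 2, and without sh1 replicate 3 the members higher with sh1 were 6 and higher with both 4.

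**Figure D1:**
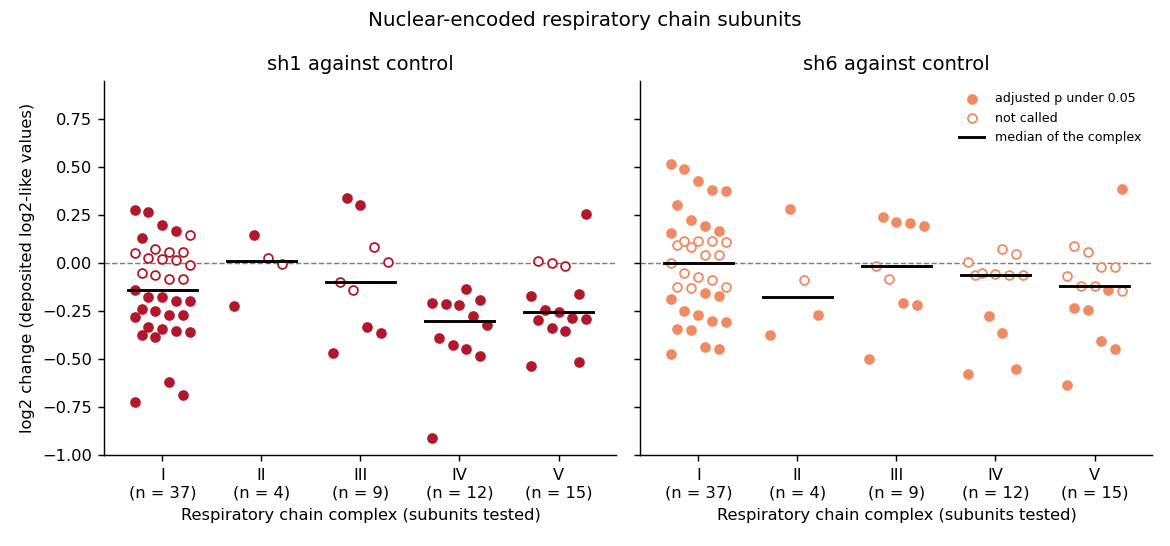
Log2 change of each annotated subunit tested (77 points per panel), by complex, with sh1 against control on the left and sh6 against control on the right. Filled points had an adjusted p under 0.05, open points did not, and bars are the medians of the complexes. All 12 points of complex IV lie below 0 in the sh1 panel.

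Complex IV, cytochrome c oxidase, was the one whose tested members were all lower with sh1. All 12 were lower and none higher at an adjusted p under 0.05, beside 30% and 29% of all genes. The median log2 change was -0.30. With sh6, 4 were lower, none was higher and 8 were not called, with a median of -0.06. The lower share with sh6, 33.3%, is near the 33.6% of all genes. With equal totals or without the length trend, 7 of 12 were lower with sh1 under each, with quantile normalisation 8, and none was higher. Under the other alternatives run, libraries left out included, 9 to 12 were lower. Length removal made 3 lower and 2 higher with sh6, at a median of 0.04.

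COX7A2L, a factor that joins complexes III and IV into supercomplexes and is related to subunit 7a, had the largest change of the chain with sh1. Its normalised count was 910.2, 958 and 909.8 in the sh1 libraries, 1210.5, 1201 and 1143 in the sh6 libraries and 1832, 1941 and 1629 in the controls. All hairpin libraries lay below all controls, and the sh1 libraries below those of sh6. The log2 change was -0.91 (SE 0.0619, adjusted p = 8.1e-14) with sh1 and -0.58 (SE 0.0619, adjusted p = 1.5e-09) with sh6, and sh6 against sh1 differed by 0.34 (adjusted p = 2.6e-05). COX7B, a small subunit of the membrane part, had 2087, 2157 and 2170.2 in the sh1 libraries, 1867, 2046 and 1949.9 in the sh6 libraries and 2699, 3119 and 2859 in the controls, again with no overlap between hairpin and control libraries. Its log2 changes were -0.42 for sh1 and -0.55 for sh6 (adjusted p = 1.9e-07 and 7.7e-10). COX6C, another small membrane subunit, had 1416, 1404 and 1419 in the sh1 libraries, 1557, 1812 and 1571 in the sh6 libraries and 1969.8, 2225 and 1823 in the controls, with changes of -0.48 for sh1 and -0.27 for sh6, and COX7A2, the subunit 7a isoform found in most tissues, had log2 changes of -0.32 for sh1 and -0.36 for sh6. These 4 were the members of complex IV called lower with both hairpins.

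A second group within complex IV was lower with sh1 and not called with sh6. COX8A, the widely expressed subunit 8, had 1583, 1647 and 1526 in the sh1 libraries, 2485, 2283 and 2039 in the sh6 libraries and 2254, 2412 and 1917 in the controls. The sh1 libraries were the lowest, and those of sh6 and the controls overlapped. COX8A had log2 changes of -0.45 (SE 0.0695, adjusted p = 2.0e-06) with sh1 and 0.05 (SE 0.0695, adjusted p = 0.55) with sh6, and was higher with sh6 than with sh1 by 0.50 (adjusted p = 3.5e-07). COX7C, with log2 changes of -0.39 for sh1 and -0.06 for sh6, and COX4I1, the ubiquitous isoform of subunit 4, with -0.22 for sh1 and 0.08 for sh6, showed the same split, with sh6 against sh1 differences of 0.33 (adjusted p = 1.4e-05) and 0.29 (adjusted p = 3.2e-05). NDUFA4 had log2 changes of -0.27 for sh1 and -0.06 for sh6. The remaining 4 subunits had log2 changes of -0.21 to -0.13 with sh1, among them COX6A1 (log2 change -0.13, adjusted p = 0.044) and COX6B1 (log2 change -0.19, adjusted p = 0.0053), the widely expressed isoforms of their subunits. With transcript length removed these were not called and lay above 0, at 0.07 and 0.01.

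Complex I oxidises NADH. With sh1, 19 of its 38 tested members were lower and 5 higher (median -0.11), and with sh6 12 were lower and 11 higher (median 0.02). With sh1 these are 50% and 13.2% of the complex I members, beside 30% and 29% of all genes. With sh6 they are 31.6% and 28.9%, near the 33.6% and 34.2% of all genes. Its matrix arm has an N part that binds NADH and a Q part that hands electrons to coenzyme Q, and its membrane arm is the P part. With sh1, of 10 N-part subunits 6 were lower and none higher, and of 21 accessory P-part subunits 13 were lower and 1 higher. These stand beside the same 30% and 29% of all genes. With sh6, 4 N-part subunits were lower and 1 higher, and 7 P-part subunits were lower and 6 higher. The lower shares with sh6, 40% and 33.3%, are near the 33.6% of all genes. The higher shares with sh6 were 10% and 28.6%, beside 34.2%.

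The Q-part core subunits NDUFS3, NDUFS7 and NDUFS8 were higher with both hairpins. NDUFS3 had a normalised count of 1523, 1619 and 1693 in the sh1 libraries, 1659, 1809 and 1774 in the sh6 libraries and 1301, 1279 and 1397 in the controls. Every hairpin library was above every control, with log2 changes of 0.27 (SE 0.0585, adjusted p = 2.1e-04) with sh1 and 0.38 (SE 0.0585, adjusted p = 1.1e-06) with sh6. NDUFS8, which carries iron-sulfur clusters, had 1678, 1757 and 1655 in the sh1 libraries, 2174, 1970.3 and 1881 in the sh6 libraries and 1564, 1343 and 1511 in the controls, without overlap between hairpin and control libraries, and had log2 changes of 0.20 for sh1 and 0.43 for sh6. NDUFS7, with the iron-sulfur cluster next to coenzyme Q, had 359.6, 413 and 441 in the sh1 libraries, 515, 500.2 and 448 in the sh6 libraries and 314, 247 and 427 in the controls. Its sh6 libraries lay above all controls, while control replicate 3 lay within the range of sh1. The changes were 0.28 (SE 0.103, adjusted p = 0.022) with sh1 and 0.52 (SE 0.103, adjusted p = 5.9e-05) with sh6. The sh1 calls of NDUFS7 and NDUFS8 were lost without control replicate 2 (adjusted p = 0.28 and 0.068). Among the accessory subunits of the Q part, NDUFA5, chosen after its values were seen, had 873, 851 and 818 in the sh1 libraries, 563, 668 and 633 in the sh6 libraries and 877, 973 and 812 in the controls. It was lower with sh6 at -0.47 (adjusted p = 5.5e-07), with no overlap with the other groups, and not called with sh1 (log2 change -0.06, adjusted p = 0.48).

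The core subunits of the N part did not share that direction. NDUFV1, which binds NADH and flavin mononucleotide, had log2 changes of 0.07 (adjusted p = 0.25) with sh1 and 0.11 (adjusted p = 0.072) with sh6, neither called. NDUFV2, an iron-sulfur subunit beside it, had 3746, 3936 and 3809.7 in the sh1 libraries, 3256, 3524 and 3508 in the sh6 libraries and 4150.1, 4419 and 4125 in the controls, lower in all hairpin libraries, with changes of -0.14 (adjusted p = 0.022) and -0.30 (adjusted p = 9.9e-06). NDUFS1, the largest iron-sulfur subunit, was lower with sh6 at -0.25 (adjusted p = 2.5e-04) and not called with sh1 (log2 change -0.01, adjusted p = 0.92).

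Among the accessory subunits of complex I, the falls were larger with sh1 than with sh6 for several. NDUFA3, a small subunit of the membrane arm, had 395, 440.5 and 360.1 in the sh1 libraries, 708, 653 and 548 in the sh6 libraries and 687, 741 and 662 in the controls. The sh1 libraries lay far below both other groups, which overlapped. NDUFA3 had log2 changes of -0.72 (SE 0.0791, adjusted p = 3.2e-09) with sh1 and -0.13 (SE 0.0791, adjusted p = 0.16) with sh6, and sh6 exceeded sh1 by 0.60 (adjusted p = 1.3e-07), the largest such difference in the chain. NDUFA13, also called GRIM-19, had 851, 901 and 983 in the sh1 libraries, 1327, 1435 and 1351 in the sh6 libraries and 1425, 1483 and 1612 in the controls, with the sh1 libraries again apart, and sh6 exceeded sh1 by 0.56 (adjusted p = 5.4e-09). NDUFS6, which binds zinc, had log2 changes of -0.36 for sh1 and 0.11 for sh6, and sh6 exceeded sh1 by 0.47 (adjusted p = 2.2e-07).

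With both hairpins, the largest falls of complex I were those of NDUFB1, NDUFB5 and NDUFA1, accessory subunits of the membrane arm. NDUFB1 had 280.4, 269 and 282 in the sh1 libraries, 363, 346 and 334 in the sh6 libraries and 456, 531 and 394 in the controls, with no overlap between hairpins and controls and changes of -0.62 (SE 0.0810, adjusted p = 1.0e-07) with sh1 and -0.34 (SE 0.0810, adjusted p = 4.1e-04) with sh6. NDUFB5 had log2 changes of -0.37 for sh1 and -0.44 for sh6, and NDUFA1 by -0.35 for sh1 and -0.44 for sh6. In all, 10 of the 38 tested members of complex I were lower with both and 4 higher, beside 19.4% and 18.9% of all genes. NDUFC2, chosen after its values were seen, had 1177, 1331 and 1332 in the sh1 libraries, 1742, 1882 and 1726 in the sh6 libraries and 1339.9, 1386 and 1340.4 in the controls, higher in the sh6 libraries than in all others. Its change with sh6 was 0.38 (adjusted p = 1.6e-06). It was not called with sh1 (log2 change -0.08, adjusted p = 0.25). NDUFC2 shares exons with the readthrough NDUFC2-KCTD14, whose change with sh6 was 0.40, so reads may be split between these rows.

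NDUFA8, an accessory subunit on the outer face of the membrane arm singled out after its values were seen, was lower with sh1 and higher with sh6. Its normalised count was 557, 474 and 529 in the sh1 libraries, 695, 766 and 722 in the sh6 libraries and 597, 623 and 665 in the controls. The 3 groups did not overlap, with sh1 lowest and sh6 highest. The changes were -0.25 (SE 0.0690, adjusted p = 0.0027) with sh1 and 0.19 (SE 0.0690, adjusted p = 0.014) with sh6, and sh6 exceeded sh1 by 0.44 (SE 0.0690, adjusted p = 2.2e-06). The sh6 call was lost without sh6 replicate 2 (adjusted p = 0.078) or control replicate 1 (adjusted p = 0.075). Of all genes tested, 3.33% were called lower with sh1 and higher with sh6.

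**Figure D2:**
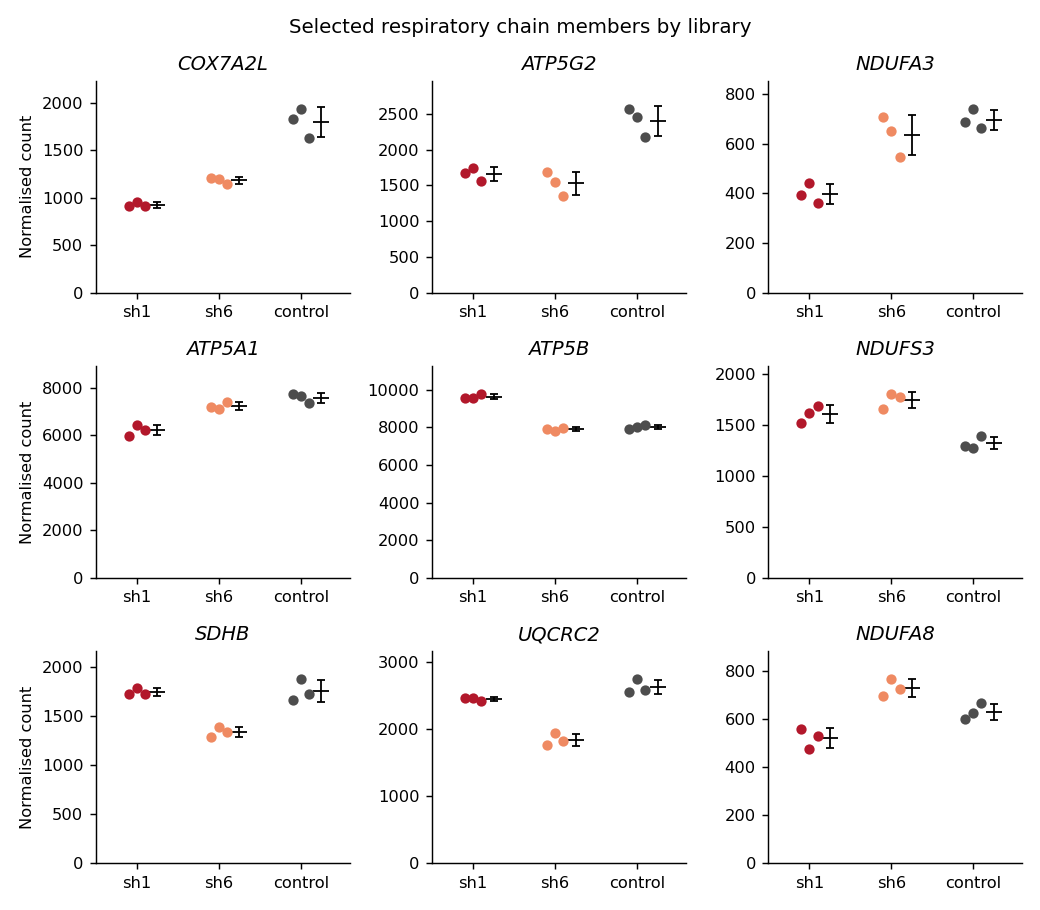
Normalised counts of 9 members in each library, with sh1, sh6 and control from left to right. Points are libraries and the bars beside them the mean ± SD of 3 libraries. COX7A2L and ATP5G2 are lower with both hairpins, NDUFA3 and ATP5A1 with sh1, and SDHB and UQCRC2 with sh6. ATP5B is higher with sh1, NDUFS3 with both, and NDUFA8 has its lowest libraries with sh1 and its highest with sh6.

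Complex II, succinate dehydrogenase, has 4 subunits, all nuclear-encoded, and its flavoprotein and iron-sulfur subunit went in opposite directions with sh6. SDHA, the flavoprotein that oxidises succinate, had a normalised count of 4729.7, 4575 and 4910.3 in the sh1 libraries, 5326, 5209 and 5078 in the sh6 libraries and 4368, 3894 and 4556 in the controls. All hairpin libraries were above all controls, with changes of 0.15 (SE 0.0557, adjusted p = 0.022) with sh1 and 0.28 (SE 0.0557, adjusted p = 4.6e-05) with sh6. SDHB, the iron-sulfur subunit that receives its electrons, had 1719, 1785 and 1723 in the sh1 libraries, 1280.0, 1386 and 1339 in the sh6 libraries and 1657, 1876 and 1721 in the controls. Its sh6 libraries were the lowest, and those of sh1 and the controls overlapped. SDHB had log2 changes of -0.37 (adjusted p = 1.2e-06) with sh6 and -0.01 (adjusted p = 0.94) with sh1. The membrane anchor SDHD was lower with both (-0.22 for sh1 and -0.27 for sh6), and the other anchor, SDHC, was not called with either (0.03 for sh1 and -0.09 for sh6). Near-identical SDHA pseudogenes exist, so the SDHA count is uncertain to that extent. The sh1 call of SDHA was lost without sh1 replicate 1, sh1 replicate 3 or control replicate 2 (adjusted p = 0.056, 0.11 and 0.20).

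Complex III passes electrons from coenzyme Q to cytochrome c. With sh1, 4 of its 10 tested members were lower and 2 higher (median -0.12), and with sh6 3 were lower and 4 higher (median -0.05). With sh1 these are 40% and 20%, beside 30% and 29% of all genes. With sh6 they are 30% and 40%, near the 33.6% and 34.2% of all genes. The redox subunits of complex III were the higher ones with sh1. CYC1, cytochrome c1, had 1978, 2156 and 2037 in the sh1 libraries, 1963, 1803 and 1883 in the sh6 libraries and 1679, 1551 and 1605 in the controls, above the controls in all hairpin libraries, and had log2 changes of 0.34 (SE 0.0563, adjusted p = 5.4e-06) with sh1 and 0.22 (SE 0.0563, adjusted p = 0.0012) with sh6. UQCRFS1, the Rieske iron-sulfur protein, had 1896, 1927 and 1911 in the sh1 libraries, 1439.5, 1566 and 1551 in the sh6 libraries and 1547, 1544 and 1511 in the controls. The sh1 libraries stood above both other groups, which overlapped. UQCRFS1 had log2 changes of 0.31 (SE 0.0546, adjusted p = 1.7e-05) with sh1 and -0.01 (SE 0.0546, adjusted p = 0.82) with sh6, a difference of sh6 against sh1 of -0.32 (adjusted p = 8.6e-06).

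The 2 large core proteins of complex III, which bear no redox centre, also went apart with sh6. UQCRC2 had 2462, 2464 and 2409.6 in the sh1 libraries, 1755, 1935 and 1821 in the sh6 libraries and 2552, 2744 and 2578 in the controls, lowest in the sh6 libraries, with changes of -0.50 (SE 0.0543, adjusted p = 1.8e-09) with sh6 and -0.10 (adjusted p = 0.12) with sh1. UQCRC1 was higher with sh6 by 0.20 (adjusted p = 0.0018) and not called with sh1 (log2 change 0.09, adjusted p = 0.17). Of the 5 small subunits UQCRB, UQCRH, UQCRQ, UQCR10 and UQCR11, 3 were lower and none higher with sh1, beside 30% and 29% of all genes. With sh6, 2 were lower and 2 higher, near the 33.6% and 34.2% of all genes for so few subunits. All 5 were higher with sh6 than with sh1, beside 30.8% of all genes. UQCRH, the hinge protein that helps dock cytochrome c, had 2937, 2959.8 and 2837 in the sh1 libraries, 3325, 3659.6 and 3436 in the sh6 libraries and 4108, 4329 and 3740.0 in the controls, with all hairpin libraries below the controls, and had log2 changes of -0.47 for sh1 and -0.22 for sh6. UQCRQ had log2 changes of -0.36 for sh1 and -0.21 for sh6, and UQCR11 by -0.14 for sh1 and 0.21 for sh6. The intronless copy UQCRHL, at 66.2 to 127 counts per library, is near-identical to UQCRH, so both rows are uncertain where reads fit either.

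Complex V, the ATP synthase, has a catalytic F1 head, a membrane part (Fo) with a ring of c subunits and a peripheral stalk that holds them together. With sh1, 11 of 18 tested members were lower and 2 higher (median -0.21), and with sh6 7 were lower and 3 higher (median -0.12). With sh1 these are 61.1% and 11.1%, beside 30% and 29% of all genes. With sh6 they are 38.9% and 16.7%, beside 33.6% and 34.2%, so the lower share with sh6 is near that of all genes. The alternating subunits of the F1 head moved in opposite directions with sh1. ATP5A1, the alpha subunit, had 5976, 6431 and 6234 in the sh1 libraries, 7177, 7094 and 7396 in the sh6 libraries and 7737, 7653 and 7331 in the controls, lowest with sh1, and had log2 changes of -0.28 (SE 0.0505, adjusted p = 1.7e-05) with sh1 and -0.07 (SE 0.0505, adjusted p = 0.24) with sh6. ATP5B, the beta subunit with the catalytic sites, had 9558, 9543 and 9787 in the sh1 libraries, 7925, 7824 and 7989 in the sh6 libraries and 7935, 8011 and 8149 in the controls. Its sh1 libraries stood above both other groups, at a change of 0.26 (SE 0.0486, adjusted p = 3.2e-05) with sh1 and -0.02 (SE 0.0486, adjusted p = 0.71) with sh6. The ratio of ATP5A1 to ATP5B counts, times 100 and not corrected for length, was 64.5 ± 2.54 with sh1, 91.3 ± 1.13 with sh6 and 94.3 ± 3.92 in the controls (SD, n = 3 each). This ratio within a library does not depend on scaling between libraries.

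Of the 5 F1 subunits 3 were lower and 1 higher with sh1, beside 30% and 29% of all genes. With sh6, 1 was lower and 1 higher, beside 33.6% and 34.2%. The higher ones were ATP5B with sh1 and ATP5D, the delta subunit, with sh6 (log2 change 0.39, adjusted p = 9.8e-05), and ATP5D, named after its values were seen, was not called with sh1. ATP5C1, the gamma subunit of the rotating stalk, had 5122, 5140.3 and 5028 in the sh1 libraries, 4821, 5419.9 and 5205 in the sh6 libraries and 6008, 6294 and 5844 in the controls, below all controls with both hairpins, and had log2 changes of -0.24 for sh1 and -0.23 for sh6. With quantile normalisation its sh1 value was -0.08 (adjusted p = 0.20), which is not a call. ATP5E, the epsilon subunit, was lower with sh1 (log2 change -0.34, adjusted p = 3.8e-05) and not with sh6 (log2 change 0.09, adjusted p = 0.23). All 4 stalk subunits were lower with sh1, beside 30% of all genes, and 2 of them with sh6, beside 33.6%. With parts this small, the sh6 counts are not set apart from the shares of all genes. ATP5H, subunit d, chosen after its values were seen, had 1725, 1788 and 1712 in the sh1 libraries, 2310.1, 2346 and 2372 in the sh6 libraries and 2475, 2785 and 2407 in the controls, with the sh1 libraries lowest, and had log2 changes of -0.53 for sh1 and -0.12 for sh6. ATP5F1, subunit b, had its larger change with sh6 (-0.16 for sh1 and -0.45 for sh6), and ATP5O, which links stalk and head, had log2 changes of -0.30 for sh1 and -0.40 for sh6.

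Subunit c of the Fo ring is the same mature protein from 3 genes, and ATP5G2 alone was called. ATP5G2 had 1668, 1749.6 and 1563 in the sh1 libraries, 1687, 1542 and 1357 in the sh6 libraries and 2574, 2454 and 2174 in the controls, with every hairpin library below every control. It had log2 changes of -0.51 (SE 0.0682, adjusted p = 1.4e-07) with sh1 and -0.63 (SE 0.0682, adjusted p = 1.6e-09) with sh6. ATP5G1 had log2 changes of 0.01 for sh1 and -0.12 for sh6 and ATP5G3 by -0.01 for sh1 and -0.02 for sh6, none called. ATP5G2 made up 37.5 ± 1.23% of the summed normalised count of these genes with sh1, 36.5 ± 2.22% with sh6 and 46.4 ± 0.967% in the controls (SD, n = 3 each, not corrected for length), and the sum itself was 85.6% and 80.8% of the control mean with sh1 and with sh6. Of the 6 Fo subunits tested, 4 were lower and none higher with sh1 (median -0.27), beside 30% and 29% of all genes. With sh6, 3 were lower and none higher (median -0.14), beside 33.6% and 34.2%.

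The counts of 18 tested complex V members include 3 rows that are not subunits. Of the 15 subunits alone, 11 were lower and 1 higher with sh1, and 6 were lower and 1 higher with sh6. ATP5SL, a gene named after ATP5S, is now called DMAC2 and is listed here among the assembly factors of complex I, not complex V. ATP5SL had 821, 783 and 813 in the sh1 libraries, 1237, 1054 and 1079.9 in the sh6 libraries and 721, 743 and 705 in the controls. All hairpin libraries were above the controls, and those of sh6 were highest. It had log2 changes of 0.59 (SE 0.0641, adjusted p = 1.7e-09) with sh6 and 0.14 (adjusted p = 0.053) with sh1. ATP5S, coupling factor B, was lower with sh6 (log2 change -0.44, adjusted p = 1.5e-04) and not called with sh1 (log2 change 0.04, adjusted p = 0.71). The readthrough ATP5J2-PTCD1 was higher with both (0.18 for sh1 and 0.25 for sh6), while ATP5J2, with which it shares exons, was lower with both, so reads may be split between these rows.

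Of the 9 subunits higher with sh1, 8 were core subunits. Of 16 core subunits, the 7 of complex I, all of complex II, CYC1, UQCRFS1 and the alpha, beta and gamma subunits of complex V, 8 were higher and 4 lower with sh1, with a median log2 change of 0.10. Of the 61 other subunits tested, with UQCRC1 and UQCRC2 counted among them, 1 was higher and 42 lower, with a median of -0.24. These others hold all 12 complex IV subunits tested, each lower with sh1, so core and complex are not separated. In complex V, the 3 core subunits were 2 lower and 1 higher with sh1 (median -0.24). Its 12 accessory subunits were 9 lower and none higher (median -0.27). In complex III both core subunits were higher, and 3 of 7 accessory ones lower. In complex I, 18 of 30 accessory subunits were lower and 1 higher. With sh6, 5 core subunits were lower and 5 higher (median -0.02), and of the others 22 were lower and 11 higher (median -0.07). With sh1 the core was 25% lower and 50% higher and the others 68.9% and 1.64%, beside 30% and 29% of all genes. With sh6 the core was 31.25% lower and 31.25% higher, near the 33.6% and 34.2% of all genes. The others were 36.1% lower, also near that share, and 18.0% higher with sh6. The core transcripts are longer, with a median of 1639 bases against 804. Without the length trend, core subunits were 8 higher and 3 lower with sh1, and the others 6 higher and 27 lower. With equal totals they were 10 higher and 2 lower, and the others 5 higher and 28 lower. Without control replicate 2, core subunits were 4 higher and 3 lower with sh1.

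**Figure D3:**
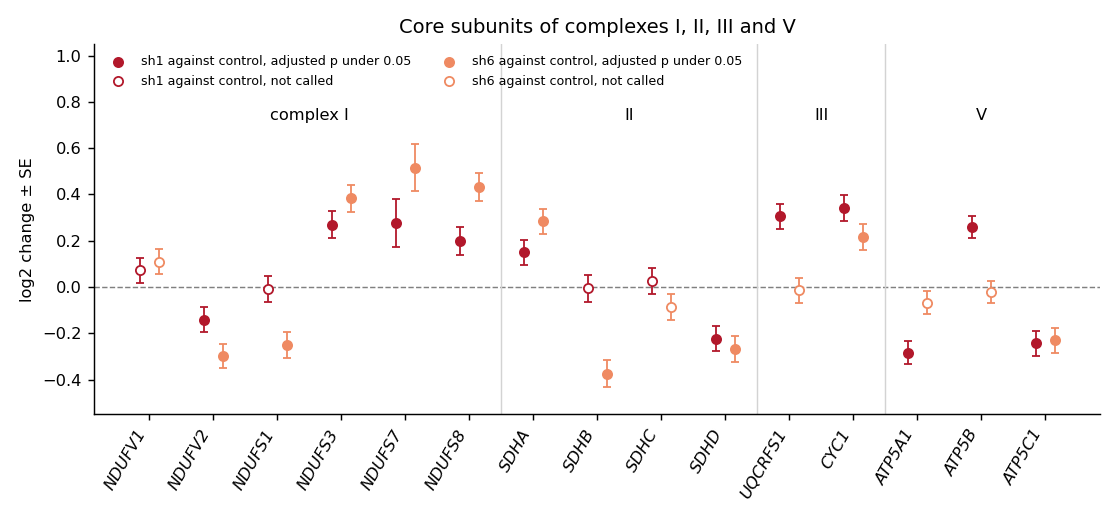
Log2 change ± SE of core subunits with sh1 (darker, left of each pair) and sh6 (lighter, right) against control. Filled points had an adjusted p under 0.05. NDUFS3, NDUFS7, NDUFS8, SDHA and CYC1 are above 0 with both, UQCRFS1 and ATP5B with sh1, and NDUFV2, SDHD and ATP5C1 are below 0 with both.

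**Figure D4:**
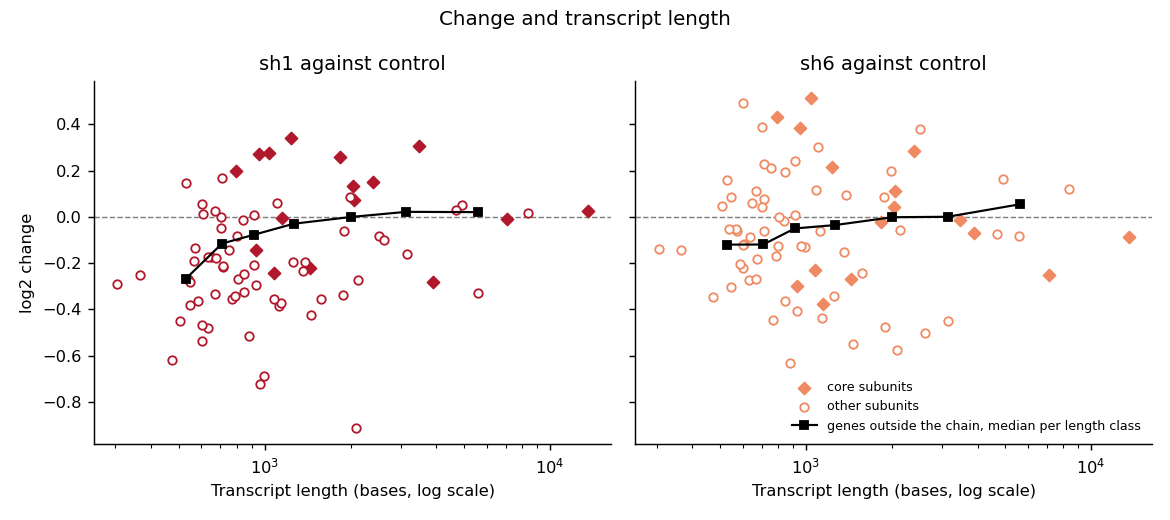
Log2 change of each subunit tested against transcript length (log axis), sh1 on the left and sh6 on the right. Diamonds are core subunits, open circles other subunits, and the black line the median of genes outside the chain in 7 length classes. With sh1 the black line runs from -0.27 in the class of up to 600 bases to 0.02 in the class over 4000 bases.

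Length classes set subunits beside other genes of like annotated length. These lengths come from annotation, such as 5575 bases for UQCRB and 13566 for SDHC, and were not measured in these cells. Some genes may thus sit in the wrong class, and the removal of the length trend has the same limit. Among transcripts of 801 to 1000 bases, the 13 subunits had a median of -0.25 with sh1 and 345 genes outside the chain had -0.08. Among those of 1001 to 1500 bases the 13 subunits had -0.22 and 1079 other genes -0.03. In the class of up to 600 bases, the 11 subunits had -0.28 and 109 other genes -0.27. Among those over 600 and up to 800 bases the 19 subunits had -0.17 and 264 other genes -0.11. Over 1500 and up to 2500 bases the 10 subunits had 0.01 and 3167 other genes 0.00. Over 2500 and up to 4000 bases the 5 subunits had -0.10 and 3571 other genes 0.02. Over 4000 bases the 6 subunits and 4281 other genes both had 0.02. With sh6 the subunits lay above the other genes in the shortest classes, with -0.06 against -0.12 both up to 600 bases and from there to 800. They lay below the other genes at 801 to 1000 bases (-0.12 against -0.05) and at 1001 to 1500 bases (-0.15 against -0.04). In the classes up to 2500, up to 4000 and over 4000 bases, subunits had 0.01, -0.07 and -0.08 with sh6. Other genes there had -0.0012, 0.00073 and 0.05. These medians are descriptions without a test.

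Summed over its subunits, complex IV was farthest below the controls with sh1. Its 19 subunit rows summed to a normalised count of 24712, 25709 and 24450.2 in the sh1 libraries, 28709.9, 29682 and 27430.4 in the sh6 libraries and 30781, 32915 and 30498 in the controls. Both hairpin groups lay below the controls, and sh1 below sh6. The means were 79.5% of the control mean with sh1 and 91.1% with sh6. For complex V they were 88.4% and 88.7%, for complex I 90.9% and 99.2%, and for complex III 93.5% and 96.4%. Complex II was at 102% and 100.0%, with the control libraries overlapping those of both hairpins. These sums were not rescaled to equal totals. The normalised totals were 1.59e+07 to 1.61e+07 with sh1, 1.72e+07 to 1.73e+07 with sh6 and 1.73e+07 to 1.74e+07 in the controls. The percentages with sh1 therefore depend on the scaling, and falls of a few percent are not read as a result. As a share of all normalised counts, the 84 subunit rows together held 0.882 ± 0.0220% with sh1, 0.870 ± 0.0185% with sh6 and 0.919 ± 0.0270% in the controls (SD, n = 3 each).

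**Figure D5:**
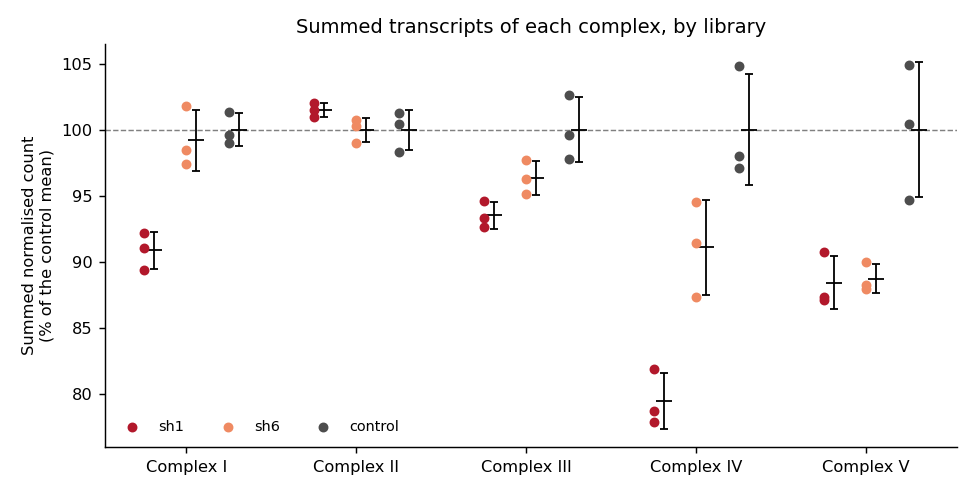
Summed normalised count of the subunits of each complex, as a percentage of the control mean, in each library, with sh1, sh6 and control from left to right. Points are libraries and bars the mean ± SD of 3. The sums were not rescaled to equal totals. Complex IV with sh1 is farthest below the control mean, at 79.5%, and complex II lies near it.

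The direct comparison of the hairpins asks where the members differ between sh6 and sh1. With sh6 against sh1, 10 members were lower and 37 higher, beside 28.9% and 30.8% of all genes, and the median log2 difference was 0.11. All 3 sh6 libraries lay below all 3 sh1 libraries for 15 members and above them for 41, beside 31.6% and 33.8% of all genes. By complex, 16 of 38 members of complex I were higher and 4 lower, 5 and 2 of 10 in complex III, 8 and 0 of 12 in complex IV, and 7 and 3 of 18 in complex V. In complex II, SDHA was higher and SDHB lower. The 10 members lower with sh6 than with sh1 were the core subunits ATP5B, UQCRFS1, NDUFS1, NDUFV2 and SDHB, the core protein UQCRC2, and NDUFA5, NDUFA6, ATP5F1 and ATP5S. With the libraries rescaled to equal totals, 21 members were lower and 24 higher, while 4977 of all 13165 genes were lower and 2973 higher on that scale (median -0.07). Of the 5 small subunits of complex III, 3 were then higher, and of the 12 of complex IV 4 were higher and 1 lower.

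The calls of some named members rested on 1 library, and the adjusted p without it is given in parentheses. Without sh1 replicate 1, the sh1 calls of ATP5F1 (0.071), ATP5J2-PTCD1 (0.13), NDUFV2 (0.090) and SDHA (0.056) were lost. Without sh1 replicate 2, the sh1 calls of COX6A1 (0.073) and NDUFS7 (0.073) were lost, and UQCR11 (0.010) became called with sh1. Without sh1 replicate 3, the sh1 calls of ATP5J2-PTCD1 (0.19), COX6A1 (0.20), COX6B1 (0.052), NDUFS7 (0.11), NDUFV2 (0.066) and SDHA (0.11) were lost. Without sh6 replicate 1, ATP5SL (0.028) became called with sh1. Without sh6 replicate 1, the sh6 call of UQCR11 (0.056) was lost, and NDUFA3 (0.036) became called with sh6. Without sh6 replicate 2, the sh1 call of ATP5J2-PTCD1 (0.054) was lost. Without sh6 replicate 2, the sh6 call of NDUFA8 (0.078) was lost. Without control replicate 1, the sh1 calls of COX6A1 (0.13) and NDUFS7 (0.061) were lost. Without control replicate 1, the sh6 call of NDUFA8 (0.075) was lost, and NDUFA13 (0.043) and NDUFS6 (0.018) became called with sh6. Without control replicate 2, the sh1 calls of ATP5F1 (0.076), ATP5J2-PTCD1 (0.072), NDUFS7 (0.28), NDUFS8 (0.068), NDUFV2 (0.10) and SDHA (0.20) were lost, and UQCR11 (0.044) became called with sh1. Without control replicate 2, the sh6 call of UQCRQ (0.12) was lost. Without control replicate 3, the sh1 calls of ATP5J2-PTCD1 (0.18) and COX6A1 (0.12) were lost, and NDUFV1 (0.048) became called with sh1. Without control replicate 3, ATP5G1 (0.0074), ATP5H (0.015), COX4I1 (0.026) and NDUFV1 (0.0092) became called with sh6.

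Scaling, transcript length and the settings of the fit also moved calls of named members. With equal totals, ATP5F1 (-0.05, adjusted p = 0.45), COX4I1 (-0.11, adjusted p = 0.092), COX6A1 (-0.02, adjusted p = 0.73), COX6B1 (-0.08, adjusted p = 0.23), NDUFA8 (-0.15, adjusted p = 0.064), NDUFV2 (-0.03, adjusted p = 0.64) and SDHD (-0.11, adjusted p = 0.078) were not called with sh1. With equal totals, ATP5SL (0.25, adjusted p = 0.0012), NDUFV1 (0.18, adjusted p = 0.0039), SDHC (0.13, adjusted p = 0.037) and UQCRC1 (0.20, adjusted p = 0.0020) became called with sh1. With equal totals, NDUFV1 (0.12, adjusted p = 0.045) became called with sh6. Without the length trend, COX4I1 (-0.05, adjusted p = 0.41), COX6A1 (0.07, adjusted p = 0.31), COX6B1 (0.01, adjusted p = 0.87), NDUFA8 (-0.11, adjusted p = 0.19) and NDUFV2 (-0.02, adjusted p = 0.81) were not called with sh1. Without the length trend, ATP5G1 (0.20, adjusted p = 0.0050), ATP5G3 (0.13, adjusted p = 0.036) and ATP5SL (0.18, adjusted p = 0.012) became called with sh1. Without the length trend, COX6C (-0.13, adjusted p = 0.055), NDUFB1 (-0.17, adjusted p = 0.058), UQCRH (-0.07, adjusted p = 0.22) and UQCRQ (-0.05, adjusted p = 0.43) were not called with sh6. Without the length trend, COX4I1 (0.20, adjusted p = 0.0017), COX8A (0.22, adjusted p = 0.0027), NDUFS6 (0.20, adjusted p = 0.0065), NDUFV1 (0.15, adjusted p = 0.014) and SDHC (-0.19, adjusted p = 0.0045) became called with sh6. With quantile normalisation, ATP5C1 (-0.08, adjusted p = 0.20), ATP5F1 (-0.0048, adjusted p = 0.95), ATP5J2-PTCD1 (0.15, adjusted p = 0.10), COX4I1 (-0.09, adjusted p = 0.14), COX6A1 (-0.06, adjusted p = 0.38), COX6B1 (-0.11, adjusted p = 0.10) and NDUFV2 (-0.02, adjusted p = 0.70) were not called with sh1. With quantile normalisation, ATP5SL (0.16, adjusted p = 0.025), NDUFV1 (0.15, adjusted p = 0.017) and UQCRC1 (0.16, adjusted p = 0.0081) became called with sh1. With libraries centred on their medians, COX6A1 (-0.12, adjusted p = 0.074) was not called with sh1. With libraries centred on their medians, ATP5SL (0.16, adjusted p = 0.030) became called with sh1. With libraries centred on their medians, NDUFV1 (0.14, adjusted p = 0.025) became called with sh6. Without the trend of the variance on the mean, ATP5F1 (-0.16, adjusted p = 0.052), COX6A1 (-0.13, adjusted p = 0.098), NDUFS7 (0.28, adjusted p = 0.072), NDUFV2 (-0.14, adjusted p = 0.059) and SDHA (0.15, adjusted p = 0.069) were not called with sh1. With no filter on low values, ATP5J2-PTCD1 (0.18, adjusted p = 0.062) and COX6A1 (-0.13, adjusted p = 0.059) were not called with sh1. With only the groups compared in the fit, ATP5J2-PTCD1 (0.18, adjusted p = 0.052) was not called with sh1. With only the groups compared in the fit, ATP5SL (0.14, adjusted p = 0.039) became called with sh1. With a robust variance prior, NDUFS7 (0.28, adjusted p = 0.058) was not called with sh1.

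Members that did not pass the filter on low values were 7 subunit isoforms and 6 other rows. COX4I2, the lung and hypoxia isoform of subunit 4, was at 0 in all 9 libraries, as were ATP5L2 and the pseudogene ATP5EP2. The heart and muscle isoforms COX6A2 and COX7A1 and the testis isoforms COX6B2, COX7B2 and COX8C had at most 3.11 counts in any library. NDUFA4L2, a relative of NDUFA4 that hypoxia induces, had 7.18, 13.1 and 11.9 in the sh1 libraries, 1.07, 0 and 4.25 in the sh6 libraries and 16.6, 18.5 and 13.2 in the controls. All hairpin libraries were below the controls, those of sh6 the lowest, and no test was made. The antisense RNAs NDUFA6-AS1, NDUFB2-AS1 and NDUFV2-AS1 had at most 23.6 counts in any library, and since the sources used here give no strand setting, their reads cannot be told from those of their sense partners. The pseudogene UQCRBP1 had at most 3.08.

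Genes around the chain were read from lists of assembly factors, electron carriers, mitochondrial DNA expression and nuclear regulators. Their counts stand beside the 19.4% of all genes that were lower and the 18.9% that were higher with both hairpins, and with lists this short, shares near those are no result about a list. Of 22 assembly factors of complex IV tested, 6 were lower with both hairpins and 3 higher, with medians of -0.08 for sh1 and -0.13 for sh6. COX14, which supports synthesis of the mitochondrial subunit COX1, had 166, 201 and 198 in the sh1 libraries, 129.7, 118 and 132 in the sh6 libraries and 273, 301 and 265 in the controls, below all controls in each hairpin library, with changes of -0.46 for sh1 and -0.88 for sh6. PET100 was lower (-0.61 for sh1 and -0.40 for sh6), and COX19, a copper-related factor, was higher (0.71 for sh1 and 0.44 for sh6). Of 20 complex I factors, 5 were lower and 3 higher with both, among them NDUFAF6 (-0.24 for sh1 and -0.68 for sh6), TMEM126B (-0.45 for sh1 and -0.37 for sh6) and ECSIT (0.20 for sh1 and 0.55 for sh6). Of 4 complex II factors SDHAF2, which inserts flavin into SDHA, was lower with both (-0.23 for sh1 and -0.45 for sh6) and none was higher.

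The 6 complex III factors held none lower and 1 higher with both, TTC19 (0.30 for sh1 and 0.51 for sh6). Both F1 assembly chaperones were higher among the 6 complex V factors tested, ATPAF1 (0.17 for sh1 and 0.40 for sh6) and ATPAF2 (0.51 for sh1 and 0.76 for sh6), and none was lower with both. Of 18 carrier genes, 4 were lower and 4 higher with both, near the shares of all genes, with medians of 0.08 for sh1 and 0.03 for sh6. The coenzyme Q synthesis genes COQ4 (0.40 for sh1 and 0.50 for sh6) and PDSS1 (0.56 for sh1 and 0.63 for sh6) were higher, and COQ5 (-0.41 for sh1 and -0.42 for sh6) was lower. CYCS, cytochrome c, was higher with sh1 (log2 change 0.21, adjusted p = 0.0020) and not called with sh6 (log2 change 0.09, adjusted p = 0.17).

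Of 15 genes of mitochondrial DNA expression, 1 was lower and 2 higher with both. TWNK, the mitochondrial helicase, had 285, 285 and 307 in the sh1 libraries, 294, 394 and 406 in the sh6 libraries and 158, 143 and 177 in the controls, with all hairpin libraries above the controls, and had log2 changes of 0.69 for sh1 and 0.95 for sh6. POLRMT, the mitochondrial RNA polymerase, had log2 changes of 0.55 for sh1 and 0.71 for sh6, and MTERF3 was lower (-0.28 for sh1 and -0.30 for sh6). TFAM, which packages mitochondrial DNA, was higher with sh6 (log2 change 0.34, adjusted p = 4.0e-06) and not called with sh1 (log2 change -0.12, adjusted p = 0.064).

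Of 13 nuclear regulators tested, 3 were lower with both hairpins and 1 higher. GABPA, the DNA-binding subunit of nuclear respiratory factor 2, an ETS-family regulator of respiratory chain genes, had 1122, 1072 and 1074 in the sh1 libraries, 913, 1013 and 919 in the sh6 libraries and 1717, 1806 and 1583 in the controls. All hairpin libraries were below all controls, with changes of -0.61 (SE 0.0611, adjusted p = 4.6e-10) with sh1 and -0.80 (SE 0.0611, adjusted p = 7.5e-13) with sh6. NFE2L2 was lower (-0.48 for sh1 and -0.44 for sh6) and the coactivator PPRC1 higher (0.39 for sh1 and 0.53 for sh6). PPARGC1A, the coactivator PGC-1alpha, had 305, 283 and 265 in the sh1 libraries, 143, 154 and 175 in the sh6 libraries and 295, 282 and 311 in the controls, lower in the sh6 libraries alone, with changes of -0.72 (adjusted p = 3.5e-09) with sh6 and -0.05 (adjusted p = 0.62) with sh1. ESRRA, a nuclear receptor that works with it, was called in opposite directions (0.24 (adjusted p = 0.0020) with sh1 and -0.28 (adjusted p = 4.5e-04) with sh6), and NRF1 was higher with sh6 (log2 change 0.30, adjusted p = 7.0e-04) and not called with sh1 (log2 change 0.12, adjusted p = 0.16). The part of these genes in the changes of the subunits was not tested.

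Of 9 genes tied to hypoxia or to the oxygen-dependent exchange of subunits, 7 were tested, COX4I1 and NDUFA4 among them. With both hairpins 2 were lower and 1 higher, beside 19.4% and 18.9% of all genes. With a list this short, these counts are no result about the list. BNIP3, a mitophagy receptor that hypoxia induces, had log2 changes of -0.62 for sh1 and -0.41 for sh6, and PDK1, which inhibits pyruvate dehydrogenase, by -0.38 for sh1 and -0.69 for sh6. LONP1, the mitochondrial protease that degrades COX4I1 in hypoxia, was higher (0.32 for sh1 and 0.27 for sh6).

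Some calls of these surrounding genes also changed with 1 library left out or with the scaling. ATPAF1 lost its sh1 call without sh1 replicate 3 (adjusted p = 0.081) and without control replicate 2 (adjusted p = 0.051). CYCS became called with sh6 without sh6 replicate 1 (adjusted p = 0.011) and without the length trend (adjusted p = 0.0056). ECSIT lost its sh1 call without sh1 replicate 1 (adjusted p = 0.056) and without control replicate 1 (adjusted p = 0.091). NDUFAF6 lost its sh1 call without sh1 replicate 1 (adjusted p = 0.15), without sh1 replicate 2 (adjusted p = 0.081), without control replicate 1 (adjusted p = 0.056), without control replicate 2 (adjusted p = 0.11) and with equal totals (adjusted p = 0.14). NRF1 became called with sh1 with equal totals (adjusted p = 0.012). SDHAF2 lost its sh1 call without sh1 replicate 1 (adjusted p = 0.058) and with equal totals (adjusted p = 0.14). TFAM became called with sh1 without sh6 replicate 1 (adjusted p = 0.044), without control replicate 3 (adjusted p = 0.029) and without the length trend (adjusted p = 0.027).

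In the authors' deposited table, whose fold changes match the 6 hairpin libraries together over the 3 controls, 23 of the 82 members were lower and 8 higher at the deposited adjusted p under 0.05. Of the same 13165 genes, 19.2% were lower and 20.4% higher in the authors' deposited table. By complex, the authors' deposited table has 10 lower and 4 higher of 38 in complex I, 1 and 1 of 4 in complex II, 2 and 1 of 10 in complex III, 4 and 0 of 12 in complex IV, and 6 and 2 of 18 in complex V.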

How the data were processed

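RNA from 9 libraries was measured by sequencing. The authors deposited 1 table of 27315 genes with a variance-stabilised value per library on a log2-like scale, a log2 fold change and an adjusted p-value, and the name of the deposit marks the values as batch-corrected without naming the batches. Per the submitters' processing notes, cutadapt, STAR, Salmon, DESeq2 and the build hg19 were used, and versions, annotation and strand setting are not given in the sources used here.

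Normalised counts were obtained by inverting the variance-stabilising formula from its floor of 5.02, the value of a gene with no reads. Rescaled to reads, 76.6% to 80.4% of values between 0.5 and 20.5 fell within 0.05 of a whole number, which falls short of recovering whole reads, so no count model was used and depths are estimates. Precision is limited by these depths and by 3 libraries per group, and the counts carry no molecular identifiers. The authors' log2 fold changes match the mean of the 6 hairpin libraries over the mean of the 3 controls (SD of the difference 0.000505 over 6783 genes with a mean above 500).

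The deposited log2 values were fitted with limma 3.58.1 (R 4.3.3), with 1 model of 3 groups over 9 libraries and a variance prior that follows mean expression. Genes needed a mean of at least 1 above the floor, which left 13165 genes (48.2%), and p-values were adjusted over all of them by the Benjamini-Hochberg method, with 0.05 as the threshold. The model was run on simulated counts with the same spread setting for every gene and library. That run cannot show how the calls hold at the uneven noise of these libraries. Log2 changes are differences of the deposited log2 values and understate changes of low genes. Rows whose symbols had turned into dates, 27 in all, were left in the fit. Transcript lengths were found for 98% of the genes tested and for all members. Tables and figures were made in Python 3.11.15 with matplotlib 3.10.9, scipy 1.17.1, pandas 2.3.3 and numpy 2.4.6. No library was a duplicate of another in its group: all pairs within a group differed by at least 2.01 in chi-square per gene. Pairs from different groups were not checked in this way.

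The members and gene lists were chosen with earlier results of these data known. Named were the 3 largest rises and the 3 largest falls per complex among members called with both hairpins, up to 3 largest differences of sh6 against sh1 per complex, the core subunits, the isoform families, up to 3 genes per list, and 6 regulators or carriers whatever their result. Alternatives were other scalings, filters and variance models, voom on recovered reads, a replicate block, removal of a transcript-length trend, and each library left out in turn. The rescaling to equal totals was added after seeing the data. The values of 1 core subunit are not reported here, and it is counted only in the totals.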

Additional observations from a re-analysis of the deposited data

Results flagged for a closer look

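The difference between the hairpins for NDUFA8 was marked because its libraries went below the controls with sh1 and above them with sh6. The log2 difference of sh6 against sh1 was 0.44 (limma adjusted p = 2.2e-06, 3 libraries each), and it kept its direction and its call under all 21 alternatives run. The separate calls were less stable. The sh1 call was lost with equal totals and with transcript length removed, and the sh6 call without control replicate 1 or sh6 replicate 2.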

How the results depend on the processing

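Of the counts of members, those that moved by more than 1.5 times, or medians that moved by more than the spread of replicates, were these. Quantile normalisation gave 16 members lower with sh6 against sh1 and a median of -0.11 with sh1. Equal totals, chosen after seeing the data, gave 30 lower and 17 higher with sh1 (median -0.078), 21 lower and 24 higher with sh6 against sh1, and 13 higher with both. Removing transcript length gave 31 lower and 16 higher with sh1 (median -0.037), a median of 0.042 with sh6, and 11 lower and 11 higher with both. An adjusted p under 0.01 gave 5 higher with sh1 and 3 higher with both. A minimum of 1.2-fold gave 30 lower and 4 higher with sh1, 10 higher with sh6, 20 higher with sh6 against sh1, and 11 lower and 2 higher with both. Leaving out each library in turn gave 40 to 47 lower and 4 to 12 higher with sh1 (medians -0.20 to -0.16), 22 to 31 lower and 16 to 23 higher with sh6 (medians -0.085 to -0.032), 8 to 13 lower and 30 to 38 higher with sh6 against sh1, and 15 to 25 lower and 2 to 9 higher with both. The log2 change of BBOX1 stayed between -2.83 and -2.71 for sh1, and between -2.08 and -1.96 for sh6.

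Of 3423 values of named genes over 21 alternatives, 3258 kept direction and call, 80 lost the call, 38 gained it and 47 changed sign. Signs changed in values not called to begin with, except COX6A1 and COX6B1 with transcript length removed. Quantile normalisation turned ATP5G3 (0.028), NDUFS1 (0.031) and SDHB (0.030) with sh1. Centring on the library medians turned ATP5G3 (0.0049), NDUFS1 (0.011) and SDHB (0.012) with sh1, and ATP5B (0.0042), ATP5G3 (0.0076) and UQCRFS1 (0.011) with sh6. Equal totals turned ATP5G3 (0.095), NDUFA5 (0.046), NDUFC2 (0.027), NDUFS1 (0.10), PPARGC1A (0.045), SDHB (0.10) and UQCRC2 (0.011) with sh1. Removing transcript length turned ATP5G3 (0.13), COX6A1 (0.066), COX6B1 (0.011), SDHB (0.086) and UQCR11 (0.016) with sh1, and ATP5B (0.017), ATP5G1 (0.028), ATP5G3 (0.091), ATP5H (0.027), COX6A1 (0.091), COX6B1 (0.10), COX7C (0.019) and UQCRFS1 (0.0016) with sh6. Over the left-out libraries, the sh1 ranges that crossed 0 were -0.061 to 0.063 for ATP5G1, -0.036 to 0.016 for ATP5G3, -0.029 to 0.13 for ATP5S, -0.12 to 0.0051 for NDUFA5, -0.035 to 0.012 for NDUFS1, -0.043 to 0.043 for SDHB and -0.0047 to 0.068 for SDHC, and the sh6 ranges were -0.043 to 0.12 for COX8A, -0.11 to 0.040 for NDUFA4 and -0.036 to 0.022 for UQCRFS1. The cause was not tested.

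Same-numbered libraries showed little common deviation (correlations of -0.128 to 0.175). The values are marked as batch-corrected, and a shared deviation may have been removed, so this cannot show whether replicate numbers pair libraries. With the replicate block, 47 members were lower and 12 higher with sh1, 30 lower and 19 higher with sh6, and 25 lower and 9 higher with both. Depth limits the isoforms under the filter on low values.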
